A study of Mus musculus with 217 samples.

Results

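Metallothioneins and the genes that move zinc across membranes were followed in the endothelial translatome of mouse brain, lung and heart up to 168 hr after lipopolysaccharide (LPS). The 8 genes, of 52550 in the count files, were chosen by name for their role in zinc handling, with earlier results of these data known: the metallothioneins Mt1, Mt2 and Mt3, the transcription factor Mtf1, the zinc importers Slc39a14, Slc39a10 and Slc39a8, and the zinc exporter Slc30a1. All mice were adult C57BL/6J RiboTag EC animals (Cdh5CreERT2/+; Rpl22HA/+), in which a tamoxifen-inducible Cre driven by the Cdh5 promoter adds an HA tag to the ribosomal protein Rpl22 of endothelial cells (ECs). Every mouse, controls included, received tamoxifen by gavage at 4 to 6 weeks of age. The LPS groups received 10 mg/kg into the peritoneum and were killed after 6, 24, 48, 72 or 168 hr, and the 0 hr mice were the controls (baseline). RNA was sequenced from HA-tagged ribosomes pulled down from homogenates of the whole organ, so that transcripts of other cells may be present. Levels of marker lists are given below, and which cells their transcripts came from was not tested. The authors propose that ECs themselves express genes of the surrounding tissue, from rank correlations with whole tissue and from single-cell data.

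Libraries were selected on the share of their reads that fell on genes, with a minimum of 3%. Of 98 libraries (217 sequencing runs), 80 were kept. Kept group sizes at 0, 6, 24, 48, 72 and 168 hr were 5, 5, 4, 6, 4 and 4 in brain and in heart, and 4, 4, 2, 6, 4 and 4 in lung. The share on genes was 3.40% in the kept library closest to the limit, the lung library labelled 6 hr replicate 4, and 2.75% in the closest one left out. Lung 6 hr replicates 1, 2 and 3 had 6.93%, 8.12% and 33.9%, and replicates 1 and 2 held 2678119 and 2745503 counts. Kept libraries held from 284457 to 43417945 counts on genes, with a median of 23645892 for brain, 11376798 for lung and 24082214 for heart. Library series below means a naming pattern of the count files, since the labels name no sequencing batch, and all 18 libraries left out belonged to series 3.

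In brain and heart, 1 library labelled 6 hr went against its label, brain replicate 6 and heart replicate 5, both of library series 1. The lung library with the same animal code, 6 hr replicate 4, is treated with them, and all 3 are called the odd libraries below. Saa3, an acute-phase gene, stood at 1.07 CPM (counts scaled to a common library size) in the brain library and 0.986 CPM in the heart library. The brain value lay inside the 0 hr range of 0.0790 to 1.63 CPM, and the heart value above that of 0.164 to 0.367 CPM. Both were far below the 1321 to 1453 and 776 to 1224 CPM of the other 6 hr libraries. The lung library was too shallow to be placed in this way, since 2 counts in it already equal 56.2 CPM. It held 4 Saa3 counts (112 CPM, against at most 98.7 at 0 hr and at least 4132 in the other 6 hr libraries) and 5 Lcn2 counts (141 CPM, against at most 76.3 and at least 757), but its 4 counts of the chemokine gene Cxcl1 (112 CPM) lay inside the 6 hr range of 25.3 to 353 CPM and above the 0 hr maximum of 8.84 CPM. Lcn2, which also rises in inflammation, stood at 287 CPM in the brain library, above the 0 hr maximum of 36.9 but below the 6 hr minimum of 4819 CPM. In the heart library Lcn2 stood at 48.1 CPM (at most 19.4 at 0 hr, at least 3107 in the other 6 hr libraries). Selp there stood at 6.71 CPM (at most 4.31 and at least 464), and Cxcl1 at 4.14 CPM, inside the 0 hr range of 3.52 to 6.48 CPM. The 3 libraries carry 1 animal code in the file names, so that they may not be 3 separate cases. Fold changes of the 7 tested genes at 6 hr are given with and without them. No 2 libraries of a group had identical counts. The file names carry 29 animal codes for the kept libraries, 23 of them in all 3 tissues, but the labels do not say that replicates are separate animals, so the p-values measure the spread between these libraries.

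Metallothioneins are small cysteine-rich proteins that hold zinc and copper, and cells make more of them when free zinc, glucocorticoids or inflammatory cytokines rise. Mtf1 encodes the zinc-sensing factor that binds metal response elements in metallothionein promoters and in the promoter of the exporter gene Slc30a1. Slc39 (ZIP) proteins bring zinc into the cytosol, and Slc30 (ZnT) proteins carry it out. Slc39a14 is known as an acute-phase importer of the liver that also carries iron and manganese, Slc39a8 as an importer of zinc and manganese, and Slc39a10 as a zinc importer of the plasma membrane.

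The promoters of Mt1 and Mt2 are shown because these neighbouring genes on chromosome 8 gave the largest values below. The sequences are from RefSeq (GRCm38.p6, forward strand) and run from 250 bases before to 30 bases after the RefSeq start, which is base 94179089 for Mt1 and base 94172618 for Mt2. The gene positions given next are from GENCODE M21, where Mt2 begins further downstream than in RefSeq, and the distances of the cores are counted from the RefSeq start. Mt2 lies at chr8:94172664-94173568, Mt1 at chr8:94179082-94180327 and Mt3 at chr8:94152607-94154146, all on the forward strand (GRCm38). Mtf1 is at chr4:124802104-124849800, Slc39a14 at chr14:70303469-70351425, Slc39a10 at chr1:46807544-46892852, Slc39a8 at chr3:135825279-135888572 and Slc30a1 at chr1:191906767-191913247. Capitals mark the 7-base cores of the metal response element searched for, TGCACNC and TGCGCNC, on either strand.

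Mt1, chr8:94178839-94179118: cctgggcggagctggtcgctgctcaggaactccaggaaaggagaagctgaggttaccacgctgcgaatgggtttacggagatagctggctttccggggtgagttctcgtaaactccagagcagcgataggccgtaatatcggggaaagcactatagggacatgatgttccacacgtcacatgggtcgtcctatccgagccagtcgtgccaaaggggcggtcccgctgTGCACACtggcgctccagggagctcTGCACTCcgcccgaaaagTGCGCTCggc

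Mt2, chr8:94172368-94172647: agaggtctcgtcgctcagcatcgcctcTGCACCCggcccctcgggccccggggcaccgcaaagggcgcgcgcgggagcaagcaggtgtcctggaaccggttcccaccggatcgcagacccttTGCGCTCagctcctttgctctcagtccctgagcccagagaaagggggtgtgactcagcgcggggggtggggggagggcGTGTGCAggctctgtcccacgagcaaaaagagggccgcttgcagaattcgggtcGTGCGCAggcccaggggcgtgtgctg

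Mt1 held 3 cores and Mt2 held 4. In windows from 250 bases before to 50 after the start, TGCACNC occurred in 12.6% and TGCGCNC in 15.4% of 32851 promoters, at least 3 cores of either kind in 1.97%, and at least 4 in 0.518%. The closest core of Mt1 upstream of the start lay 23 to 17 bases before it, and that of Mt2 lay 50 to 44 bases before it, on the reverse strand. Slc30a1 held 2 cores and Mt3 held 1. Of 2 promoter entries of Slc39a8, 1 held a single core. Mtf1 and both entries of Slc39a10 held 0. The full palindromic glucocorticoid response element, searched without mismatch, was in 3 of all promoters and in none of these. At that rarity its absence from these short windows does not show that the genes lack such sites. A match is a description of the letters and does not show binding, and Slc39a14 had no entry.

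At baseline the brain endothelial translatome carried far more metallothionein transcript than lung or heart. Mt1 stood at 155, 222, 264, 329 and 371 CPM in the 5 brain libraries, 11.3, 27.5, 62.5 and 73.7 in lung, and 12.0, 14.4, 15.4, 18.6 and 26.8 in heart (CPM on library sizes scaled by the trimmed mean of M values, TMM). Mt2 stood at 71.0 to 258 CPM in brain, 8.15 to 25.2 in lung and 1.64 to 5.49 in heart. The brain libraries lay above all others for both genes, and for Mt2 the lung libraries also lay above the heart libraries. The levels of other cells' markers differed between the tissues as well, with median sums of 1542 CPM in brain, 20.0 in lung and 276 in heart for 7 astrocyte markers and 2752, 272 and 110 CPM for 6 neuron markers, and their part in this difference was not tested. Mt3, a metallothionein known from neurons and astrocytes, stood at 64.9 to 355 CPM in brain and at most 0.884 CPM in any lung or heart library at baseline.

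In a fit of all 3 tissues (edgeR quasi-likelihood test, adjusted p under 0.05 over all genes), Mt1 was 6.49-fold higher in brain than in lung (log2 2.70 ± 0.98 SE, adjusted p = 0.016) and 15.3-fold higher than in heart (3.94 ± 0.94, adjusted p = 0.00036). Mt2 was 9.77-fold (adjusted p = 0.011) and 34.5-fold higher (adjusted p = 9.9e-05). Between brain and lung 6 of 7 tested genes were called, against 55.6% of all genes tested, between brain and heart 5 of 7 against 45.7%, and between lung and heart 4 of 7 against 49.2% as background. Mt1 and Mt2 were not called between lung and heart (log2 1.24 ± 0.90, adjusted p = 0.25, and 1.82 ± 1.02, adjusted p = 0.13). Both were called higher in lung with the animal as a block (1.68 ± 0.58, adjusted p = 0.013, and 2.20 ± 0.58, adjusted p = 0.0014). With the animal as a block, Slc39a14 was also called lower in brain than in heart (-1.15 ± 0.39, adjusted p = 0.013; adjusted p = 0.068 without the block). Without the odd 6 hr libraries in the fit, all 7 were called between brain and heart, with Slc39a14 (-1.46 ± 0.42) and Mtf1 (-0.87 ± 0.31) lower in brain. Another scaling (relative log expression, RLE) moved the median of all genes by 0.32 between brain and lung and by 0.28 between brain and heart (log2), less than the differences named here.

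The importers and Mtf1 were ordered differently across the tissues. Slc39a10 stood at 108 to 226 CPM in brain, 35.8 to 51.9 in heart and 4.69 to 9.50 in lung, with no overlap between tissues, and each difference was called (brain against lung 4.42 ± 0.50, brain against heart 1.85 ± 0.41, lung against heart -2.58 ± 0.46, adjusted p at most 0.00012). Slc39a8 stood at 35.3 to 93.6 CPM in brain, 9.13 to 17.9 in lung and 1.66 to 6.05 in heart, again without overlap (brain against lung 2.21 ± 0.45, brain against heart 3.99 ± 0.45, lung against heart 1.78 ± 0.43). Mtf1 was highest in lung, at 40.1 to 89.4 CPM, against 12.9 to 18.5 in brain (-1.97 ± 0.33 for brain against lung) and 19.0 to 24.9 in heart (1.45 ± 0.33 for lung against heart). Slc39a14 was highest in heart, at 28.1 to 40.8 CPM, against 11.8 to 18.2 in brain and 6.32 to 14.7 in lung, and of these differences the one between lung and heart was called (-1.81 ± 0.58, adjusted p = 0.0073).

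Levels of different genes were compared per kilobase of annotated exon (GENCODE M21, GRCm38), as means at 0 hr. In brain these were 258 ± 116 CPM per kb for Mt2, 215 ± 68.7 for Mt1 and 213 ± 138 for Mt3 (SD, n = 5), which overlap within their spread, followed by 25.1 ± 7.75 for Slc39a10 and 8.02 ± 3.46 for Slc39a8. Mtf1 (1.71 ± 0.237) and Slc39a14 (1.43 ± 0.229) came last in brain and overlapped. The annotated exons of Mt1 cover 1.25 kb in 1 block and those of Mt2 0.588 kb in 3 blocks, and 432 of the Mt2 exon bases are shared with the antisense gene Gm45774. Exons of all annotated transcripts were merged, and the block of Mt1 is its whole gene span. Bases that a transcript splices out then count as exon, so the Mt1 value per kb can be too low. The order of the 3 metallothioneins cannot be read from these means.

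Slc30a1 could not be followed. It had 0 counts in 75 of the 80 kept libraries and 1 count in the other 5, and at most 1 in any of the 98, so that it was not tested and no call below includes it. The equivalent of 3 counts was between 0.0691 and 10.5 CPM in kept libraries before TMM scaling. Its exons share 468 bases with the antisense gene 1700034H15Rik, which had 0 counts in each kept library. The other part of its 5244 exon bases is not shared with that gene, and why so few reads were counted was not tested.

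At 6 hr Mt1 and Mt2 rose in all 3 tissues. In brain, Mt1 stood at 6003, 4028, 4358 and 3373 CPM in replicates 1 to 4, above every 0 hr library, and at 193 CPM, inside the 0 hr range, in the library that went against its label. In heart the 4 values were 3225, 2056, 3767 and 1188 CPM, against 16.9 in the odd library. In lung the 3 values were 1711, 1219 and 2198 CPM, against 197 CPM (7 counts) in the odd library. Apart from the odd libraries, no library of 0 hr and 6 hr overlapped for Mt1 in any tissue.

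**Figure D1:**
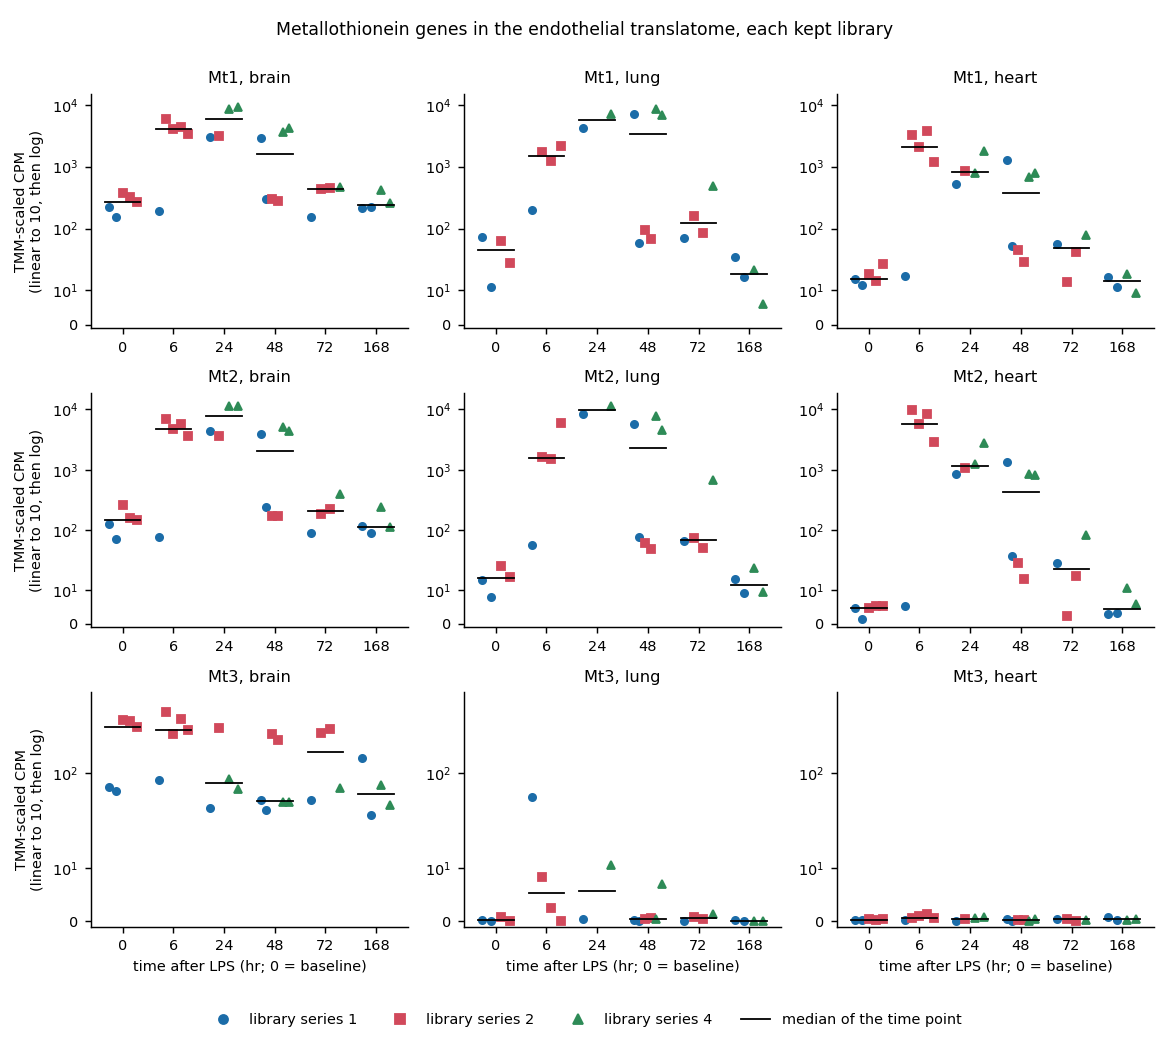
Mt1, Mt2 and Mt3 in every kept library, in TMM-scaled CPM on an axis that is linear up to 10 and logarithmic above, against time after LPS, with 1 point per library, the shape giving its library series, and a line at the median. Mt1 and Mt2 are high at 6 and 24 hr except in the odd 6 hr library of series 1, split into low and high libraries at 48 hr, and lie near the 0 hr points at 168 hr.

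The fold changes of Mt2 were larger than those of Mt1, a difference that was not tested. In heart Mt2 went from at most 5.49 CPM at baseline to 9695, 5788, 8333 and 2887 CPM, which made it 1337-fold higher (log2 10.38 ± 1.51, adjusted p = 3.2e-05, edgeR) with the odd library at 5.46 CPM included, and 1812-fold higher without it (10.82 ± 1.14). In brain Mt2 reached 7060, 4740, 5796 and 3572 CPM (odd library 77.6), 27.2-fold higher (4.77 ± 0.92, adjusted p = 0.0017; 37.4-fold without the odd library). In lung it reached 1643, 1533 and 5885 CPM (odd library 56.2, from 2 counts), 161-fold higher (7.33 ± 1.41, adjusted p = 0.0036; 242-fold without). The folds of Mt1 were 12.4 in brain (3.63 ± 0.72, adjusted p = 0.0023; 17.0 without the odd library), 35.5 in lung (5.15 ± 1.27, adjusted p = 0.018; 54.6 without the odd library, and adjusted p = 0.078 without 0 hr replicate 3) and 126 in heart (6.98 ± 1.12, adjusted p = 8.2e-05; 171 without the odd library).

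Within library series 2, which holds the other 6 hr libraries, the fold changes were of similar size (Mt1 3.84 ± 0.26 in brain, 5.03 ± 0.97 in lung and 6.98 ± 0.59 in heart). In lung they were not called in that series (adjusted p = 0.19 for Mt1 and 0.16 for Mt2), with 3 libraries against 2. Within series 1 the 6 hr library of each tissue is the odd one, and neither gene was called there (Mt1 -0.00 ± 1.06 in brain, 0.29 ± 1.35 in heart and, from 7 counts, 1.91 ± 2.24 in lung).

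At 6 hr Slc39a14 rose with the metallothioneins. It stood at 451, 477, 525.5 and 497 CPM in heart against 28.1 to 40.8 at baseline, at 69.8, 115, 72.8 and 84.0 CPM in brain against 11.8 to 18.2, and at 107, 172 and 196 CPM in lung against 6.32 to 14.7. The odd libraries stood at 44.7, 13.8 and 0 CPM, and no other 6 hr library overlapped the 0 hr libraries. The folds were 12.7 in heart (3.67 ± 0.54, adjusted p = 3.6e-05), 4.58 in brain (2.20 ± 0.38, adjusted p = 0.00074) and 17.0 in lung (4.09 ± 0.89, adjusted p = 0.0080), and without the odd libraries 17.2, 5.95 and 24.9.

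The other importers followed other patterns. Slc39a8 fell in brain at 6 hr, to 19.8, 23.5, 20.0 and 22.5 CPM from 35.3 to 93.6 CPM, 1.74-fold lower (-0.80 ± 0.18, adjusted p = 0.0063; odd library 74.8 CPM, and 2.01-fold lower without it). At baseline the brain libraries of series 1 stood at 85.9 and 93.6 CPM and those of series 2 at 35.3 to 50.2 CPM, and without series in the fit the fall was not called (-0.96 ± 0.41, adjusted p = 0.33), while within series 2 it was (-0.94 ± 0.14, adjusted p = 0.0012). In lung Slc39a8 stood at 53.0, 101 and 31.0 CPM, above the 9.13 to 17.9 CPM of baseline, but was not called (1.55 ± 0.58, adjusted p = 0.11; 1.59 ± 0.58, adjusted p = 0.12, without the odd library at 28.1 CPM, from 1 count). Under RLE scaling, which moves the median of all lung genes at 6 hr by 0.31, it was called (2.07 ± 0.59, adjusted p = 0.032), and calls over all lung genes were 66.1% higher in place of 52.9%. Slc39a10 in lung had 0 counts in 3 of the 4 libraries and stood at 7.29 CPM in replicate 3 (-1.25 ± 0.96, adjusted p = 0.44; -1.18 ± 1.00 without the odd library). Slc39a10 in brain stood at 62.7 to 94.4 CPM in replicates 1 to 4, below each baseline library, and was called lower within series 2 (adjusted p = 0.019) and without the odd library at 178 CPM (-0.95 ± 0.28, adjusted p = 0.023; -0.65 ± 0.27, adjusted p = 0.18, with it). In heart neither Slc39a10 (0.35 ± 0.25, adjusted p = 0.25; 0.30 ± 0.27 without the odd library) nor Slc39a8 (0.67 ± 0.36, adjusted p = 0.14; 0.58 ± 0.39 without) was called.

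At 6 hr Mtf1 was called in heart, where it rose from 19.0 to 24.9 CPM at baseline to 62.2, 54.7, 44.5 and 43.2 CPM, 2.07-fold (1.05 ± 0.22, adjusted p = 0.00091; odd library 25.8 CPM, 2.39-fold without it). In brain it stood at 18.6 to 22.6 CPM (0.55 ± 0.24, adjusted p = 0.20; 0.68 ± 0.25, adjusted p = 0.078, without the odd library) and was called within series 2 (0.63 ± 0.13, adjusted p = 0.0073). In lung the 3 libraries stood at 10.5, 21.5 and 75.8 CPM, and Mtf1 was not called (-0.99 ± 0.62, adjusted p = 0.34; -0.78 ± 0.62, adjusted p = 0.48, without the odd library at 0 CPM). 721 exon bases of Mtf1 are shared with 1110065P20Rik on the other strand.

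Counted together, 4 of 7 tested genes were called at 6 hr in brain (3 higher, 1 lower), against 6.44% of all genes tested, 3 of 7 in lung against 4.83%, and 4 of 7 in heart against 42.8%. Without the odd libraries the counts were 5, 3 and 5, against 14.3%, 3.95% and 58.4%. The fifth gene in heart was Mt3, at 0.520 to 1.29 CPM against 0.164 to 0.389 CPM at baseline (1.47 ± 0.56, adjusted p = 0.026).

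**Figure D2:**
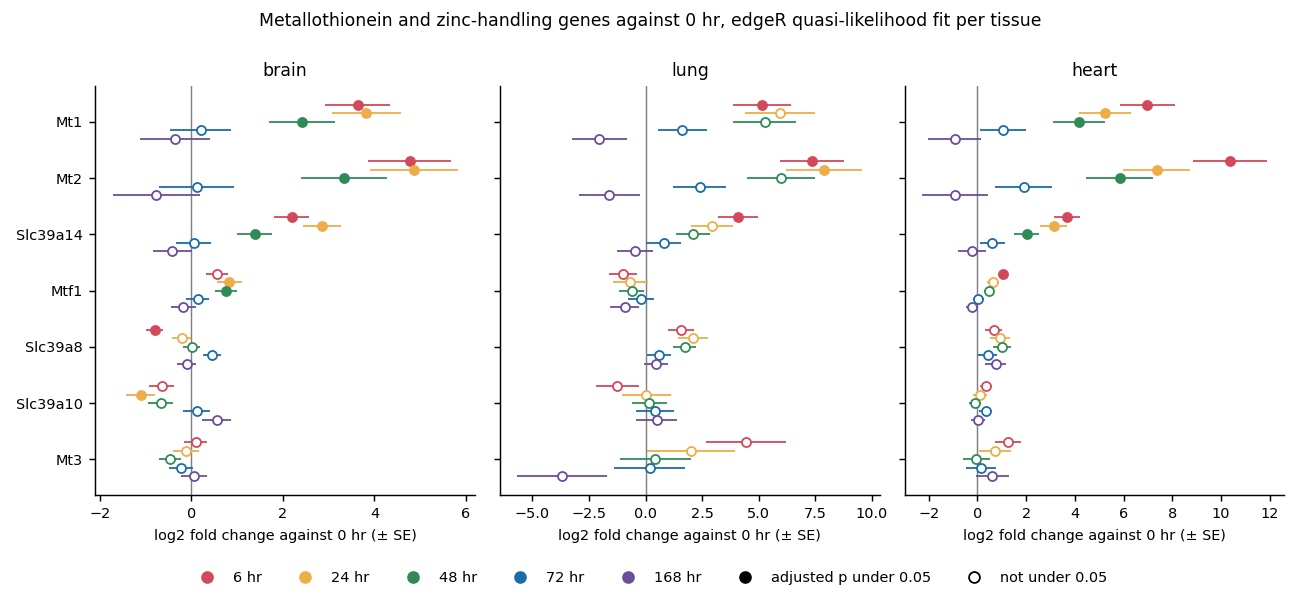
Log2 fold change against 0 hr, with its standard error, for the 7 tested genes in each tissue, 1 colour per time point, filled where the adjusted p is under 0.05. Mt1, Mt2 and Slc39a14 stand to the right of 0 at 6, 24 and 48 hr, and no point at 72 or 168 hr is filled; each tissue has its own axis range.

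The ratio of Mt2 to Mt1 counts within a library, which does not depend on library size, changed with the levels. At baseline it ranged from 0.459 to 0.695 in brain, from 0.204 to 0.722 in lung and from 0.136 to 0.382 in heart, so that each library held fewer Mt2 than Mt1 counts. At 6 hr, without the odd libraries, brain libraries had 1.06 to 1.33, lung libraries 0.960 to 2.68 and heart libraries 2.21 to 3.01, above each baseline value of the tissue. The odd libraries had 0.402, 0.286 and 0.323, inside the baseline ranges of lung and heart and just below that of brain. At 24 hr the ratio was 1.16 to 1.43, 1.57 to 2.02 and 1.23 to 1.68. At 168 hr the medians were 0.490 in brain, 0.848 in lung and 0.439 in heart. Reads of the antisense gene over Mt2 are a part of this ratio that was not tested.

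**Figure D3:**
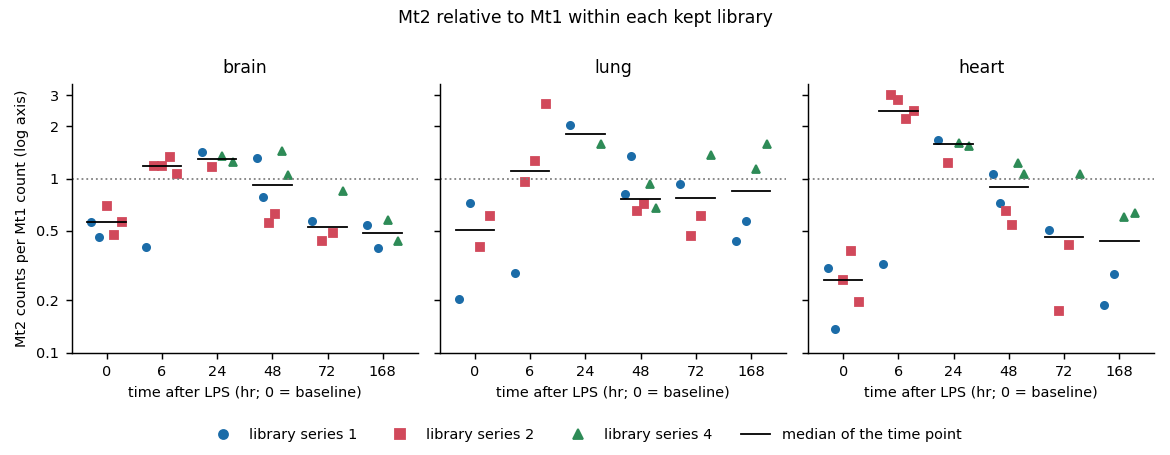
Counts of Mt2 per count of Mt1 in each kept library, on a log axis, against time after LPS, with the median as a line and a dotted line at equal counts. At 0 hr all points lie below 1, and at 24 hr all points lie above 1.

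At 24 hr the metallothioneins stayed high. In brain Mt1 stood at 3032, 3149, 8476 and 9339 CPM and Mt2 at 4335, 3665, 11424 and 11586 CPM, 14.2-fold (3.82 ± 0.76, adjusted p = 0.0026) and 29.0-fold (4.86 ± 0.96, adjusted p = 0.0024) above baseline. The higher pair of values are the libraries of series 4, which has no 0 hr library. In heart Mt1 stood at 517, 864, 780 and 1818 CPM (5.23 ± 1.07, adjusted p = 0.0036) and Mt2 at 866, 1062, 1245 and 2810 CPM (7.36 ± 1.37, adjusted p = 0.0020). In lung the 2 libraries stood at 4161 and 7193 CPM for Mt1 and 8396 and 11296 CPM for Mt2, and Mt2 was called (7.89 ± 1.70, adjusted p = 0.022) while Mt1 was not (5.94 ± 1.53, adjusted p = 0.10). The lung call of Mt2 was lost on leaving out 1 library in 5 of 24 cases (0 hr replicates 1, 3 and 4, 24 hr replicate 1 and 72 hr replicate 3), with adjusted p up to 0.17.

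Slc39a14 was higher at 24 hr in brain, at 164, 60.4, 151 and 114 CPM (2.86 ± 0.42, adjusted p = 0.00019), and in heart, at 394, 348, 534 and 425 CPM (3.12 ± 0.54, adjusted p = 0.0015). In lung its 118 and 144 CPM lay above all baseline libraries, with an adjusted p of 0.31 (2.96 ± 0.93). In brain Slc39a10 was now called lower, at 94.7, 49.4, 38.4 and 38.2 CPM (-1.10 ± 0.31, adjusted p = 0.026), and Mtf1 higher, at 23.0, 24.7, 40.3 and 46.9 CPM (0.83 ± 0.27, adjusted p = 0.045). On leaving out 1 library the Mtf1 call was lost in 14 of 28 cases, among them each 0 hr library, and the Slc39a10 call in 5 of 28, which were 0 hr replicate 2 and each 24 hr library. Slc39a8 in brain was back at 34.0 to 95.2 CPM (-0.21 ± 0.21, adjusted p = 0.56). Pericyte and fibroblast markers in brain summed to medians of 3836 CPM at 24 hr and 1123 CPM at baseline, and neuron markers to 865 and 2752 CPM, and their part in these values was not tested.

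In all, 5 of 7 genes were called at 24 hr in brain, against 11.2% of all genes, 1 of 7 in lung against 0.375%, and 3 of 7 in heart against 16.2%. Set directly against 6 hr, 0 of 7 were called in any tissue (edgeR), where 0.291%, 0.00586% and 4.74% of all genes were. DESeq2 and limma-voom also called 0, and 1 gene in brain, 0 in lung and 1 in heart had an unadjusted p under 0.05. Without the odd libraries, Slc39a8 in brain was 1.77-fold higher at 24 than at 6 hr (0.82 ± 0.21, adjusted p = 0.048), and in heart Mt2 (-3.62 ± 1.00, adjusted p = 0.0082), Mt1 (-2.33 ± 0.86, adjusted p = 0.041), Mtf1 (-0.66 ± 0.23, adjusted p = 0.033) and Slc39a14 (-1.05 ± 0.40, adjusted p = 0.050, under the limit before rounding) were lower.

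At 48 hr the 6 libraries of each tissue split into 3 low and 3 high. For Mt1 in brain, replicates 1, 2 and 4 stood at 302, 280 and 303 CPM, inside the baseline range, and replicates 3, 6 and 7 at 2927, 3603 and 4213 CPM. The same replicate numbers were low and high in lung (93.6, 68.5 and 57.9 against 7142, 8411 and 6733 CPM) and in heart (44.4, 28.4 and 51.9 against 1264, 686 and 778 CPM). In heart each low library still stood above the 0 hr maximum of 26.8 CPM, and in lung replicate 1 stood above that of 73.7 CPM. Mt2 split the same way in each tissue, for example at 168, 174 and 238 against 3862, 5167 and 4420 CPM in brain. The low Mt2 libraries were inside the 0 hr range in brain. They were above it in lung (48.8 to 77.7 against at most 25.2 CPM) and in heart (15.3 to 37.7 against at most 5.49 CPM). According to the animal codes in the file names, libraries that share a replicate number at 48 hr come from the same animal, so the 3 tissues are 3 views of 6 animals.

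Replicates 1 and 2 belonged to library series 2, replicates 3 and 4 to series 1, and replicates 6 and 7 to series 4. Lcn2 followed in part. It stood at 305 and 968 CPM in the brain libraries of series 2, at 7601 CPM in replicate 4, and at 21631 to 25460 CPM in replicates 3, 6 and 7. In heart Lcn2 stood at 637 to 3100 CPM in replicates 1, 2 and 4, and at 14946 to 18762 CPM in replicates 3, 6 and 7. In lung it did not follow the split, with 1830 CPM in replicate 4 and 1413 CPM in replicate 3. Slc39a14 stood closer together, at 25.7 to 28.8 CPM in brain replicates 1, 2 and 4 and 42.3 to 83.8 CPM in the other 3, and at 48.9 to 98.7 and 305 to 406 CPM in heart. Even the lower values were above the 0 hr maxima of 18.2 CPM in brain and 40.8 CPM in heart. In lung Slc39a14 stood at 33.1, 0.212 (1 count) and 58.4 CPM in replicates 1, 2 and 4, and at 92.1, 149 and 80.1 CPM in replicates 3, 6 and 7. Mtf1 in brain stood at 14.5, 16.1 and 16.4 CPM in replicates 1, 2 and 4, in the baseline range of 12.9 to 18.5, and at 48.0, 41.0 and 44.6 CPM in replicates 3, 6 and 7. Slc39a10 in brain lay the other way round, at 122, 116 and 113 CPM and at 43.3, 39.9 and 41.4 CPM. These libraries were not tested against each other.

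**Figure D4:**
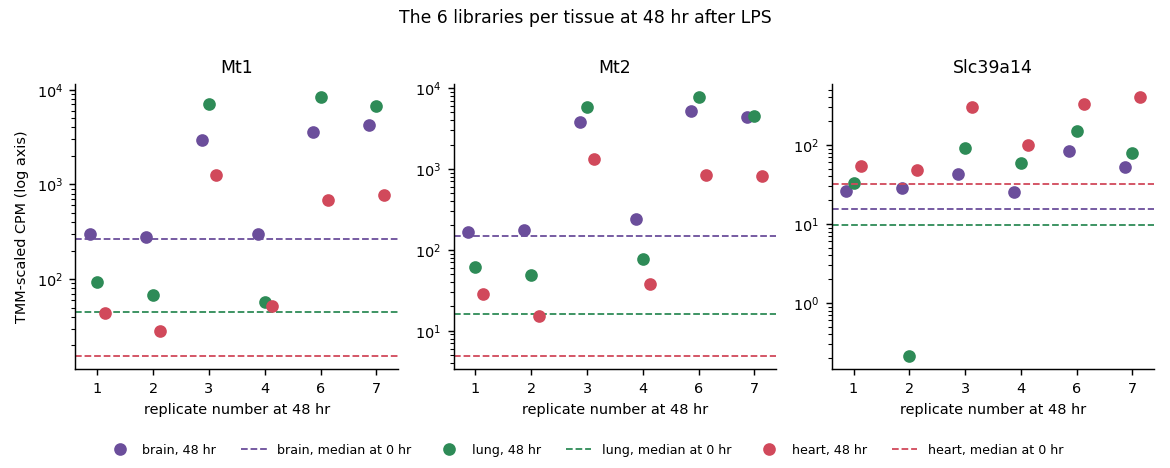
Mt1, Mt2 and Slc39a14 in the 6 libraries per tissue at 48 hr, in TMM-scaled CPM on a log axis, by replicate number, with dashed lines at the medians of the 0 hr libraries. For Mt1 and Mt2, replicates 3, 6 and 7 lie far above the dashed line in each tissue, and replicates 1, 2 and 4 lie much closer to it.

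With library series in the fit, Mt1 (2.43 ± 0.72, adjusted p = 0.027), Mt2 (3.34 ± 0.94, adjusted p = 0.021), Slc39a14 (1.38 ± 0.38, adjusted p = 0.018) and Mtf1 (0.75 ± 0.24, adjusted p = 0.039) were called higher in brain at 48 hr, 4 of 7 genes against 14.2% of all. In heart Mt1 (4.18 ± 1.08, adjusted p = 0.027), Mt2 (5.83 ± 1.36, adjusted p = 0.015) and Slc39a14 (2.02 ± 0.51, adjusted p = 0.024) were called, 3 of 7 against 4.19%. Limma-voom called 0 of 7 in brain and in heart. In lung 0 of 7 were called by edgeR or limma-voom against 0.598%, 4 had an unadjusted p under 0.05, and DESeq2 called 4 (Mt2 5.99 ± 1.49, adjusted p = 0.055, and Mt1 5.26 ± 1.37, adjusted p = 0.071, in edgeR). Within series 2 the brain values were near 0 (Mt1 -0.12 ± 0.27, Mt2 -0.11 ± 0.33), and in heart Mt2 was at 2.08 ± 0.65 with an adjusted p of 0.24. Within series 1, replicates 3 and 4 gave Mt1 3.27 ± 0.94 in brain with an adjusted p of 0.18. On leaving out 1 of 28 libraries, the brain calls of Mt1 and Mt2 were lost in 3 cases each (0 hr replicates 1 and 2 and 48 hr replicate 3), that of Slc39a14 in 1 (0 hr replicate 1) and that of Mtf1 in 9. The heart calls were lost in 6 cases for Mt1, 3 for Mt2 and 4 for Slc39a14, each of which included 0 hr replicates 1 and 2 and 48 hr replicate 3.

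At 72 hr the levels were far below those of 24 hr, but many libraries still stood above every baseline library. For Mt2 these were 1 of 4 in brain, 4 of 4 in lung and 3 of 4 in heart, and for Mt1 3 of 4 in each tissue. Mt1 stood at 156 to 467 CPM in brain, 71.1 to 489 in lung and 13.6 to 79.7 in heart. Replicate 5, of series 4, was highest for Mt1 in each tissue, and for Mt2 it stood at 669 CPM in lung, where the other 3 lay between 51.2 and 73.0, and at 84.1 CPM in heart, where they lay between 2.35 and 28.4. At 168 hr Mt1 stood at 214 to 416, 5.99 to 35.1 and 9.22 to 18.1 CPM. At 72 hr 0 of 7 genes were called in any tissue (edgeR, DESeq2 and limma-voom), against 3.53% in brain, 0.193% in lung and 0.275% in heart, with an unadjusted p under 0.05 for 1, 1 and 0 genes. At 168 hr 0 of 7 were called by any of the 3 tools, against 0% in brain, 0.0117% in lung and 0% in heart, and 0 had an unadjusted p under 0.05.

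**Figure D5:**
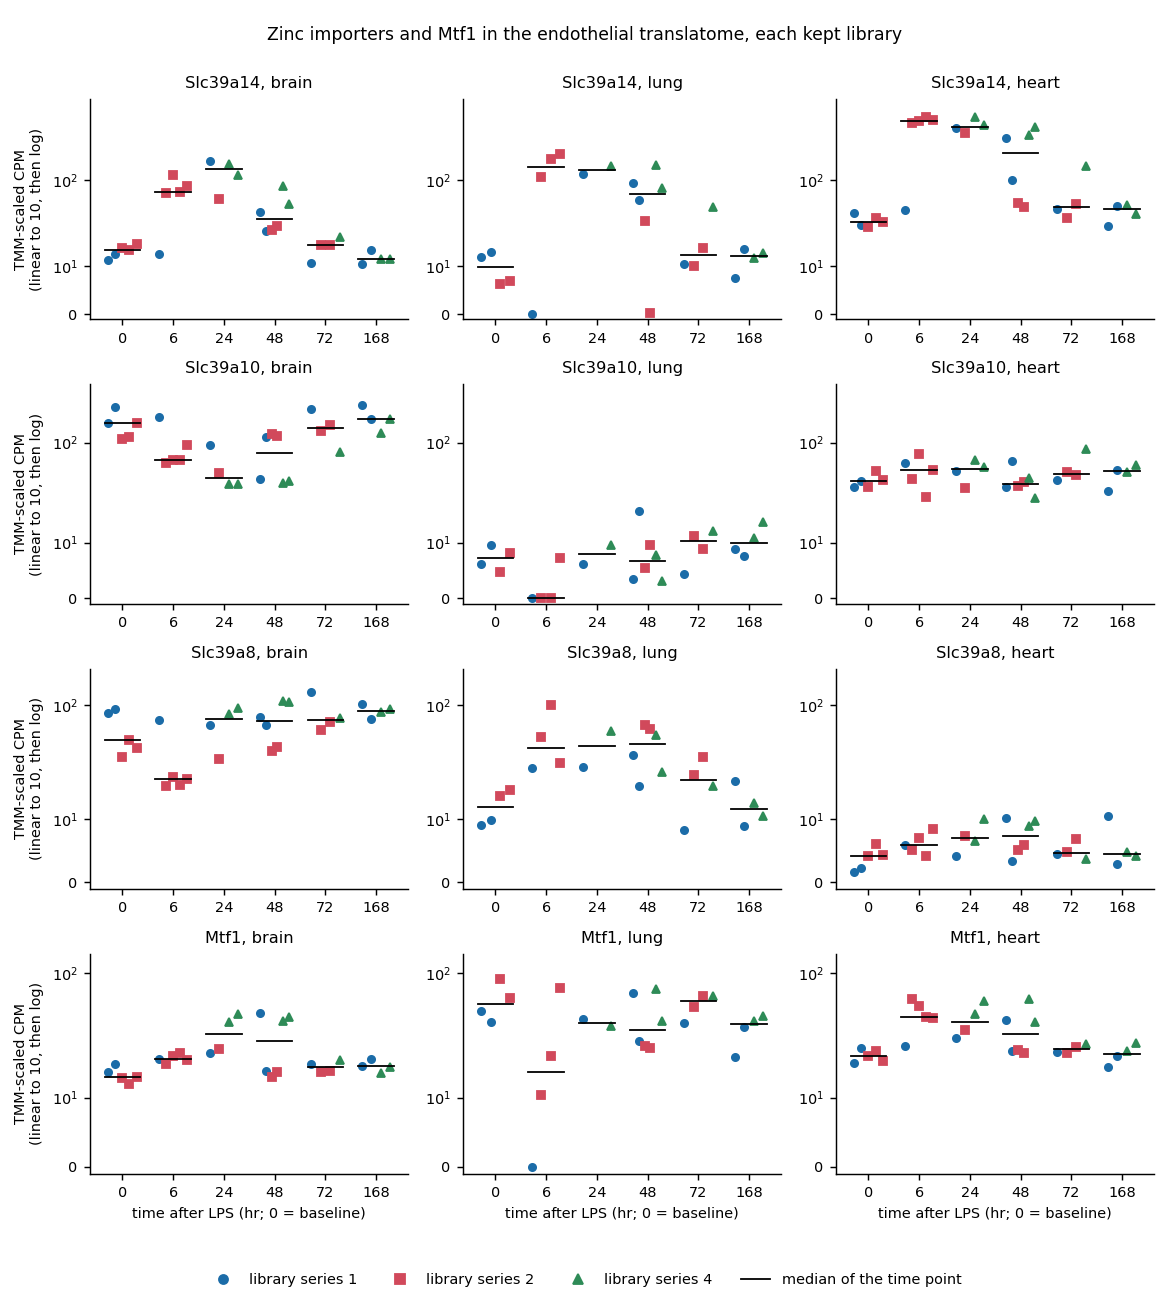
Slc39a14, Slc39a10, Slc39a8 and Mtf1 in every kept library, in TMM-scaled CPM on an axis that is linear up to 10 and logarithmic above, against time after LPS, with the median as a line and the shape giving the library series. Slc39a14 is high at 6 and 24 hr in each tissue apart from the odd libraries of series 1, and Slc39a10 and Slc39a8 are low in brain at 6 hr.

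Mt3 in brain differed by library series. It stood at 224 to 436 CPM in the 12 brain libraries of series 2, 36.0 to 145 in the 9 of series 1 and 46.3 to 86.8 in the 7 of series 4. The summed level of 7 astrocyte markers had medians of 2838, 1132 and 1298 CPM in the same series, and its part in the Mt3 level was not tested. With series in the fit, Mt3 was called at no time in brain (log2 0.09 ± 0.25 at 6 hr, adjusted p = 0.90; 0.03 ± 0.27 without the odd library). In lung Mt3 had few counts, at 15, 2, 2 and 2 in the 6 hr libraries and 2 and 155 in the 24 hr libraries, and its 6 hr fold change of 4.45 ± 1.76 (adjusted p = 0.13) was 2.72 ± 1.71 without the odd library.

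The responses of the tissues were set against each other in the fit of all libraries. In this fit the series effect is shared by all tissues, while each fit per tissue has its own. At 6 hr the fold rise of Mt2 was smaller in brain than in heart (difference of log2 fold changes -5.36 ± 1.41, adjusted p = 0.049; -5.24 ± 1.24, adjusted p = 0.0037, without the odd libraries), 1 of 7 genes called in this pair, against 0.636% of all genes. Without the odd libraries Slc39a8 was also called in it (-2.09 ± 0.58, adjusted p = 0.018). For Mt1 the same difference was -3.05 ± 1.21 (adjusted p = 0.28) and was called with the animal as a block (-2.68 ± 0.66, adjusted p = 0.020). These are differences in fold, from unlike baselines. Without the odd libraries, mean Mt2 went from 152 to 5292 CPM in brain and from 4.39 to 6676 CPM in heart. Mean Mt1 went from 268 to 4440 CPM in brain and from 17.4 to 2559 CPM in heart. The Slc39a8 responses of brain and lung differed (-3.17 ± 0.62, adjusted p = 0.00040; 1 of 7 genes against 13.3%; -3.62 ± 0.63 without the odd libraries), as did the Mtf1 responses of lung and heart (-1.78 ± 0.48, adjusted p = 0.0064; 1 of 7 against 18.1%; -1.85 ± 0.50 without the odd libraries). For Slc39a8 the fits per tissue gave a smaller gap, with -0.80 ± 0.18 in brain and 1.55 ± 0.58 in lung. At 0 hr Slc39a8 was higher in series 1 than in series 2 in brain but lower in heart (1.66 and 2.29 against 4.18 to 6.05 CPM). A series effect shared by all tissues cannot follow both. Limma-voom did not call the Mt2 difference. A limit of 10% of reads on genes leaves only replicate 3 in lung at 6 hr, so that fit cannot check the Slc39a8 and Mtf1 differences. With the animal as a block Mt2 differed between lung and heart too (-2.70 ± 0.83, adjusted p = 0.020; -2.98 ± 1.44, adjusted p = 0.14, without), and Mtf1 between brain and lung (1.61 ± 0.48, adjusted p = 0.026; 1.22 ± 0.48, adjusted p = 0.075, without). RLE scaling moved the median of all genes by -0.18 for brain against lung and by 0.16 for lung against heart in these contrasts, and turned the share of higher calls over all genes from 56.7% to 46.5% and from 38.3% to 48.8%.

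For Slc39a14 no difference in the 6 hr response was called, with values of -1.66 ± 0.79 for brain against lung, -1.29 ± 0.72 for brain against heart and 0.37 ± 0.78 for lung against heart (adjusted p = 0.15, 0.50 and 0.86), and these standard errors do not show that the responses were alike. At 24 hr Mt3 was called between brain and lung (-5.50 ± 1.27, adjusted p = 0.0039), 1 of 7 against 3.85%, where the 2 lung libraries held 155 and 2 counts. The fits per tissue gave a much smaller gap for Mt3, with -0.11 ± 0.28 in brain and 2.00 ± 1.95 in lung, neither called. Mt3 differed by series in brain, and the series effect is shared by all tissues in the fit that made the call, so its size cannot be relied on. Mt2 was called between brain and lung at 24 hr with the animal as a block (-3.44 ± 0.87, adjusted p = 0.030; -3.73 ± 1.61, adjusted p = 0.22, without). At 24 hr 0 of 7 genes were called between brain and heart (against 0.327%) or between lung and heart (against 1.67%) by edgeR, DESeq2 or limma-voom, with 1 and 2 genes at an unadjusted p under 0.05.

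Of 21 other zinc genes, which include Mt4 and the remaining Slc39 and Slc30 transporters, 17 were tested in brain, 15 in lung and 14 in heart. At 6 hr 0 were called by edgeR in brain, where Slc39a7 had the lowest adjusted p (1.19 ± 0.38, adjusted p = 0.064), or in lung, where Slc30a9 had it (-1.12 ± 0.58, adjusted p = 0.24), and in heart 4 were higher and 2 lower, against 22.4% higher and 20.3% lower over all genes, so that the heart count was near the background. Leaving out the odd library in the ranges, the heart genes that rose most were the importers Slc39a2 (3.98 ± 0.82, and 4.62 without the odd library), from at most 0.409 to between 1.79 and 6.06 CPM, and Slc39a6 (1.89 ± 0.34, and 2.27 without the odd library), from 17.3 to 25.7 up to 68.8 to 108 CPM, and the vesicular transporter Slc30a2 (2.50 ± 0.77, and 2.77 without), from at most 0.601 to between 1.85 and 3.55 CPM. The listed genes had median log2 fold changes at 6 hr of 0.04 (brain), -0.75 (lung) and -0.00 (heart), beside 0.00, -0.42 and -0.05 over all genes. At 24 hr 3 of 17 were higher in brain and 2 of 14 in heart, against 6.52% and 9.07% of all genes, and 0 were called in lung at any time. In brain at 48 hr Slc39a7 (1.38 ± 0.38), Slc30a7 (0.50 ± 0.14) and Slc39a4 (1.93 ± 0.46) were higher, 3 of 17 against 8.11% of all genes, named here after their values were seen.

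Among 12 iron and copper genes, all tested, 4 rose and 1 fell at 6 hr in brain, 2 rose in lung, and 4 rose and 1 fell in heart. Over all genes 4.21% rose and 2.23% fell in brain, 2.56% rose in lung, and 22.4% rose and 20.3% fell in heart, where the count was near the background. Cp, which encodes the copper-binding ferroxidase ceruloplasmin, rose in each tissue (2.47 ± 0.44 in brain, 2.86 ± 0.61 in lung, 2.59 ± 0.41 in heart, and 2.85, 3.32 and 2.89 without the odd libraries). In brain it went from 103 to 258 CPM at baseline to 781 to 1032 CPM, with 330 CPM in the odd library. Hamp, which encodes the iron hormone hepcidin, rose in brain (6.37 ± 1.47, and 7.26 without the odd library) and heart (5.01 ± 0.92, and 5.47 without) at low levels of 1.76 to 6.02 and 9.32 to 31.8 CPM at 6 hr, with 0 and 0.592 CPM in the odd libraries. The ferritin subunit Fth1 rose in lung (3.65 ± 0.93, and 3.99 without), the iron transporter Slc11a2 in heart (2.49 ± 0.39, and 2.91 without) and the haem-degrading enzyme Hmox1 in brain (1.55 ± 0.40, and 1.95 without). The list's medians were 0.10, 0.27 and -0.01.

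Marker transcripts differed between the same groups. The summed level of 9 endothelial markers had a median of 2161 CPM in brain at baseline (1564 to 3335) and 1189 CPM at 6 hr (858 to 2180), 12680 and 3297 CPM in lung, and 8911 and 4247 CPM in heart, and was highest at 6 hr in the odd libraries of brain and heart. In lung it ranged from 11650 to 16389 CPM at baseline and from 1782 to 13284 CPM at 6 hr. All 9 were above a median of 1 CPM in each group. In these bulk pulldowns, fewer cells of a type and less RNA per cell cannot be told apart. Astrocyte markers in brain summed to medians of 1542 CPM at baseline and 2084 CPM at 6 hr, and 6 neuron markers to 2752 and 4449 CPM. Median sums of 6 neutrophil markers were 96.6 and 2451 CPM in lung, 21.3 and 42.0 in brain and 0.736 and 39.6 in heart, where Ly6g was at 0 in all baseline libraries. Those of cardiomyocyte markers in heart stood at 3185 and 3996 CPM and lung epithelium markers in lung at 9717 and 9788 CPM. The lung epithelium sums ranged from 5967 to 12444 CPM at baseline and from 253, in the odd library, to 24283 CPM at 6 hr. Microglia and macrophage markers summed to 89.0 and 101 CPM in brain. Pericyte and fibroblast markers at 0, 6, 24 and 48 hr summed to 1123, 801, 3836 and 2149 CPM in brain and to 347, 414, 759 and 991 CPM in heart. Neuron markers in brain were at 865 CPM at 24 hr and 810 CPM at 48 hr, and endothelial markers at 3026 and 3542 CPM in brain, 20065 and 14453 in lung, and 8365 and 9702 in heart. Neutrophil markers in lung were still at 1988 and 1111 CPM. The part of these lists in the metallothionein and importer levels was not tested.

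The genes whose mean log2 CPM ran most like that of Mt1 over the 18 groups of tissue and time, with each tissue's mean taken off, among 9022 genes whose average log2 CPM reached 3, were Mt2 (Pearson r = 0.993), the interleukin-17 receptor gene Il17ra (0.953) and the transcription factor genes Cebpb (0.951) and Hif1a (0.947), with Slc39a14 in sixth place (0.942). Those most like Slc39a14 were Apold1 (0.970), Mt2 (0.965), Tifa (0.960) and Sod2 (0.959), which encodes the mitochondrial superoxide dismutase. By Spearman's rho Mt2 (0.981) again came first for Mt1, followed by Slfn2 (0.953), Irf7 and Nfkbia, and Inhbb (0.967) and Tifa (0.961) for Slc39a14. These are descriptions over groups that share libraries, animals and the odd libraries.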

How the data were processed

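Ribosome-bound mRNA of mouse brain, lung and heart was sequenced at 0, 6, 24, 48, 72 and 168 hr after LPS. The authors deposited raw counts per gene and sequencing run, made per the labels with STAR 2.4.2 and HTSeq 0.6.1 on mm10. The annotation release and the strand setting are not given in the sources used here. The counts of runs of 1 library were summed (217 runs, 98 libraries), and 18 libraries with under 3% of reads on genes were left out. Kept depth was 284457 to 43417945 counts, and the equivalent of 3 counts (0.0691 to 10.5 CPM before TMM scaling) is a limit of counting error only.

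Counts were tested with edgeR 4.0.16 (R 4.3.3, filterByExpr, TMM, quasi-likelihood) with library series, read from the naming of the count files, as covariate, per tissue and in 1 fit of all tissues. The fit of all tissues assumes the same series effect in each tissue. P-values were adjusted by Benjamini-Hochberg over all genes, with a threshold of 0.05. Log2 CPM used a prior count of 2. DESeq2 1.42.0, limma 3.58.1 (voom), RLE scaling, other library filters, fits within series, the replicate or animal as a block, and leaving out each library were alternatives. The fits without the odd 6 hr libraries, those within series, the limit of 10% on genes and the fit of 0 hr libraries alone were chosen after seeing the data. The gene members, lists of other zinc genes, iron and copper genes and cell type markers were chosen with earlier results of these data known, so the tests describe them. Named genes were the members, and from each list up to 3 genes per tissue with the largest changes past the threshold at 6 hr.

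Within a tissue, same-numbered libraries did not deviate together (15 of 53, 14 of 42 and 16 of 56 pairs correlated above 0.1 in brain, lung and heart), so replicate numbers were not treated as pairs. Libraries with 1 animal code in the file names did (53 of 74 pairs across tissues, median correlation 0.218), and the block of animals was fitted for this reason. Same-numbered libraries of 1 group in different tissues also did (49 of 73 pairs, median 0.186), and 57 of the 74 pairs of 1 animal share a number. On simulated counts for the 6 hr comparison of brain (18590 genes), 35% of genes changed by 1 on the log2 scale and 99% of those changed by 2 were recovered. The shares were 18% and 90% for lung (15864 genes) and 31% and 100% for heart (15659 genes). For the difference in response of brain and lung at 6 hr (19517 genes) the shares were 7% and 70%. In the measured counts, standard errors of the 7 tested genes at 6 hr ran from 0.58 (Slc39a8) to 1.76 (Mt3) in lung. For the difference of brain and lung they ran from 0.48 (Mtf1) to 1.43 (Mt2). Recovery of changes at these standard errors was not tested.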

Additional observations from a re-analysis of the deposited data

Results flagged for a closer look

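Among the groups of 4 or more libraries, 108 combinations of gene, tissue and time were tested for a library far from the others, and 12 had one. Of these, 8 were in the odd 6 hr libraries. Chance gives about 1 in 20, but genes measured in the same library are not separate cases, so the count does not show an excess over that rate. In brain, replicate 6 stood at 192.7 CPM for Mt1 (others 3373 to 6003), 77.56 for Mt2 (3572 to 7060), 13.79 for Slc39a14 (69.81 to 115) and 74.8 for Slc39a8 (19.76 to 23.45). In heart, replicate 5 stood at 16.9 CPM for Mt1 (1188 to 3767), 5.457 for Mt2 (2887 to 9695) and 44.71 for Slc39a14 (450.7 to 525.5). In lung, replicate 4 stood at 0 CPM for Slc39a14 (107 to 196.1), in a library where 2 counts equal 56.2 CPM.

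The remaining cases were single libraries. Mt1 stood at 155.8 CPM in the 72 hr brain replicate 3 (others 431.5 to 467.1). Mt2 stood at 668.8 CPM in the 72 hr lung replicate 5 (51.23 to 73) and at 1.636 CPM in the 0 hr heart replicate 2 (4.719 to 5.495). Slc39a14 stood at 0.212 CPM, from 1 count, in the 48 hr lung replicate 2 (33.14 to 149.2).

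In 4 cases the response differed between tissues by a test of the difference itself (edgeR, log2 scale). These were Slc39a8 in brain against lung at 6 hr (-3.171, adjusted p = 0.0003959), Mt2 in brain against heart at 6 hr (-5.355, adjusted p = 0.0489), Mtf1 in lung against heart at 6 hr (-1.783, adjusted p = 0.00637) and Mt3 in brain against lung at 24 hr (-5.5, adjusted p = 0.003942). All come from the fit in which the tissues share the series effect. The fits per tissue gave smaller gaps for Mt3 (-0.11 in brain and 2.00 in lung) and Slc39a8 (-0.80 in brain and 1.55 in lung).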

How the results depend on the processing

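Against 0 hr, 13 of 35 tests of the members were called in brain, 4 in lung and 10 in heart. In brain the count was 7 with the replicate block, 8 with limma-voom and 1 within library series 1. In lung it was 12 with DESeq2, 8 without the low-count filter, 8 without the library series covariate, 7 with all 98 libraries, 7 with at least 10% of reads on genes, and 0 with only 0 hr and the time point in the fit, within series 1 or within series 2. In heart it was 0 within series 1. Leaving out 1 library gave 8 to 14 in brain (8 without 0 hr replicate 1 or 2), 7 to 12 in heart and 2 to 10 in lung (2 without 0 hr replicate 3, 10 without 6 hr replicate 3, 7 and 8 without 48 hr replicates 1 and 2). For 24 hr against 6 hr, with 0 calls in each tissue, the odd libraries left out gave 1 in brain and 4 in heart, no low-count filter gave 2 in heart, and leaving out 1 library gave 0 to 1 in brain (6 hr replicate 6), 0 to 1 in lung (6 hr replicate 3) and 0 to 4 in heart (6 hr replicate 5). For the difference in response at 6 hr, with 3 calls, the count was 6 with the animal block, 8 with the replicate block, 6 with DESeq2, 8 without the filter, and 1 with all 98 libraries or at least 10% on genes. At 24 hr, with 1 call, it was 2 with the animal block, DESeq2, RLE scaling, the odd libraries left out or at least 10% on genes, 5 without the filter and 0 with limma-voom. The directions that turned were Mt2 (-0.38) and Mt1 (-0.00053) in brain and Slc39a14 (-9.50) in lung at 6 hr within series 1, and Mt2 (-0.11) and Mt1 (-0.12) in brain at 48 hr within series 2. The cause of these changes was not tested, other than that fits within series hold fewer samples.

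With the replicate block, 11 of 46 calls were lost and 9 gained, among them all 4 in brain at 48 hr (adjusted p = 0.14 for Mt1 and 0.11 for Mt2), all 3 in heart at 48 hr and Mt2 in lung at 24 hr (adjusted p = 0.84). Leaving out libraries under 1000000 counts removes 1 lung library, and the 4 lung calls were kept. The limit of 10% on genes leaves only replicate 3 in lung at 6 hr, so its counts for lung at that time rest on 1 library. Low counts limit Slc30a1, Mt3 outside brain and the 6 hr lung libraries.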
